A study of Mus musculus with 21 samples.

Results

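The EHD family of mouse (Ehd1, Ehd2, Ehd3 and Ehd4) was described across macrophages given a soluble mannose receptor protein or a control protein. The 4 genes were found by symbol among the 23250 genes of the deposited expression table, and all 4 were present. The family was chosen by its member Ehd4, whose measured difference between the 2 proteins changed sign over time, so the levels of Ehd4 are given as a description and carry no test. Ehd1, Ehd2 and Ehd3 were taken along by name.

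EHD proteins are ATPases of the dynamin superfamily, named for their carboxy-terminal Eps15 homology domain. They assemble on tubular endosomal membranes and help return internalised receptors to the cell surface. Ehd1 is known for its place at the endocytic recycling compartment, Ehd3 for the early steps towards it, Ehd4 for early endosomes, and Ehd2 for the necks of caveolae at the plasma membrane. In macrophages, recycling from endosomes returns transferrin receptor, integrins and phagocytic receptors to the surface.

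The cells were bone-marrow-derived macrophages on a C57BL/6J genetic background, grown for 7 days with 2.5% supernatant of a line that secretes GM-CSF, a growth factor for myeloid cells. The series' design text calls the cells MR-deficient, that is, without the mannose receptor encoded by Mrc1, and this holds for all 7 groups. One group was untreated (0 h), and the other 6 received either FcMR, a recombinant fusion of the mannose receptor's extracellular region with the Fc region of human IgG1, or an isotype control for 4, 12 or 24 h. Each group held 3 libraries, 21 in all, sequenced as 75 bp single-end reads. No label says whether replicates came from separate mice or cultures, so p-values measure only the spread between these libraries, which may be technical. There were no untreated cells at 4, 12 or 24 h, so the isotype protein and time in culture cannot be told apart.

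Library totals ran from 5532225 to 66729533 counts. Mrc1 held 0 to 11 counts in a library. The 7 macrophage markers were all present and summed to 19600 to 38100 CPM (counts divided by the library total and put on one scale), while 4 lymphocyte markers summed to 2.26 to 6.76. Libraries differed in how counts depended on base composition. This GC tilt, the mean log2 level of GC-rich genes less that of GC-poor genes relative to the average library (transcripts of at least 57.3% against at most 40.8% GC), ran from -1.58 to 0.821. By the library numbers in the titles, libraries 3350 to 3355 lay between -1.58 and -0.153 and libraries 3356 to 3361 between 0.588 and 0.821. Other runs of numbers were mixed, with 0.0381 to 0.786 in 3347 to 3349 and -1.3 to 0.398 in 3362 to 3364, or narrow, with -0.1 to -0.0525 in 3365 to 3367. FcMR 12 h replicate 1 (library 3355) and isotype 4 h replicate 3 (library 3356) stand out of title order in these numbers, and each had a tilt in the range of its neighbours by number and not of the other libraries of its group. Ehd1 and Ehd4 were therefore described with and without these 2 libraries and with and without a correction for GC content. Ehd2 and Ehd3, which held too few counts for the main fit, were not.

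Ehd1 and Ehd4 carried nearly all of the family's counts, with 147870 and 41781 over the 21 libraries, against 33 for Ehd2 and 62 for Ehd3. Ehd4 (ENSMUSG00000027293.13) spans chromosome 2 from 120089175 to 120154606 on the minus strand of GRCm38. Ehd1 (ENSMUSG00000024772.9) spans chromosome 19 from 6276725 to 6300096 on the plus strand. Ehd2 (ENSMUSG00000074364.6) lies on chromosome 7 from 15946958 to 15967567 on the minus strand, and Ehd3 (ENSMUSG00000024065.7) on chromosome 17 from 73804134 to 73832094 on the plus strand. All 4 are protein coding, and no other annotated gene overlaps any of them. The longest annotated transcript of Ehd1 has 3353 bases and 58.6% GC, at the 94th percentile of the genes tested for GC content. That of Ehd4 has 3730 bases and 51.4% GC, at the 62.6th percentile.

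The bases just upstream of Ehd4 are shown as the DNA beside the start of the member whose difference reversed. RefSeq's promoter table for GRCm38.p6 held 3 of the 4 members (Ehd2, Ehd3 and Ehd4). The stretch below runs 5′ to 3′ on the minus strand and covers chr2:120154607-120154825, the 219 bases before the gene's annotated start. Capitals mark the letters of the CCAAT box, a promoter element, read on either strand.

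Ehd4: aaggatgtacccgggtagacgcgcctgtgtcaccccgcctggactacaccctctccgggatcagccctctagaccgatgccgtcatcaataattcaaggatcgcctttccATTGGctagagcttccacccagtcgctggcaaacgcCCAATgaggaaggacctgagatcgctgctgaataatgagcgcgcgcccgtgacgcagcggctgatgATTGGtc

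This stretch held 3 matches to CCAAT on both strands, against 1 match in Ehd2 and 0 in Ehd3 over windows of the same length, and 30.9% of the 32851 promoters in the table held at least 1. The CRE core TGACG had 2 matches in Ehd4 (14.7% of promoters held it) and GAGGAAG, a form of the PU.1 element of myeloid genes, had 1 (8.97% of promoters). The GC box GGGCGG (28.3% of promoters) and the AP-1 element TGANTCA (6.08%) had 0 matches there. None of the 6 matches in Ehd4 overlapped another, and the window held 17 CpG dinucleotides against a median of 5 over all promoters. Every window ended 31 bases before the gene's RefSeq start. That end was set by the GENCODE start of Ehd4 and not by the GENCODE starts of the other genes. These are letter matches in 1 window, with no measurement of binding.

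Ehd4 RNA stood higher at each later time in the isotype arm, while in the FcMR arm it was highest at 4 h and lowest at 24 h. Levels are in CPM after TMM scaling, a correction of library totals for differences in composition. In untreated cells the 3 libraries gave 97.5, 91.9 and 82.7 CPM. The isotype libraries gave 117, 122 and 128 CPM at 4 h. They gave 152, 142 and 144 CPM at 12 h and 182, 175 and 167 CPM at 24 h. The isotype libraries thus lay above the 3 untreated ones and stood higher at each later time without overlap. Of all genes, 42.4%, 61.8% and 62.7% had isotype and untreated libraries that did not overlap at 4, 12 and 24 h.

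The FcMR libraries gave 220, 204 and 191 CPM of Ehd4 at 4 h. They gave 88.9, 103 and 93.9 CPM at 12 h. At 24 h they gave 74.7, 67.9 and 78 CPM. All 3 FcMR libraries were above the isotype libraries at 4 h and below them at 12 and 24 h, and this pattern is what the gene was chosen for. Across all genes tested, 29.7% had FcMR and isotype libraries that did not overlap in either direction at 4 h, 35.4% at 12 h and 34.4% at 24 h.

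Endothelial markers ran the same way between the arms. The 4 of 5 listed markers in the table summed to 187 to 202 CPM of the library total with FcMR and 134 to 177 with isotype at 4 h. The sums were 107 to 130 against 159 to 179 at 12 h and 52.7 to 70.8 against 90.6 to 99.3 at 24 h, with 221 to 238 in untreated cells. No marker of the 4 did so alone: Vwf overlapped between the arms at 4 h (102 to 123 against 74.2 to 126 CPM after TMM scaling), and Kdr lay above isotype with FcMR at 12 h (43.3 to 46.2 against 32.2 to 37.4). Cdh5, the defining junction protein of endothelium, read 1.34 to 6.35 CPM over all libraries, and Pecam1 1.89 to 10.7. The 7 neutrophil and precursor markers summed to 410 to 462 CPM in untreated cells. Their sums overlapped between FcMR and isotype at 4 h (166 to 216 against 173 to 215) and 12 h (47.8 to 67.3 against 41 to 70.1). At 24 h they were 14.7 to 27.2 with FcMR and 38 to 54 with isotype. The part of either list in the Ehd4 levels was not tested.

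**Figure D1:**
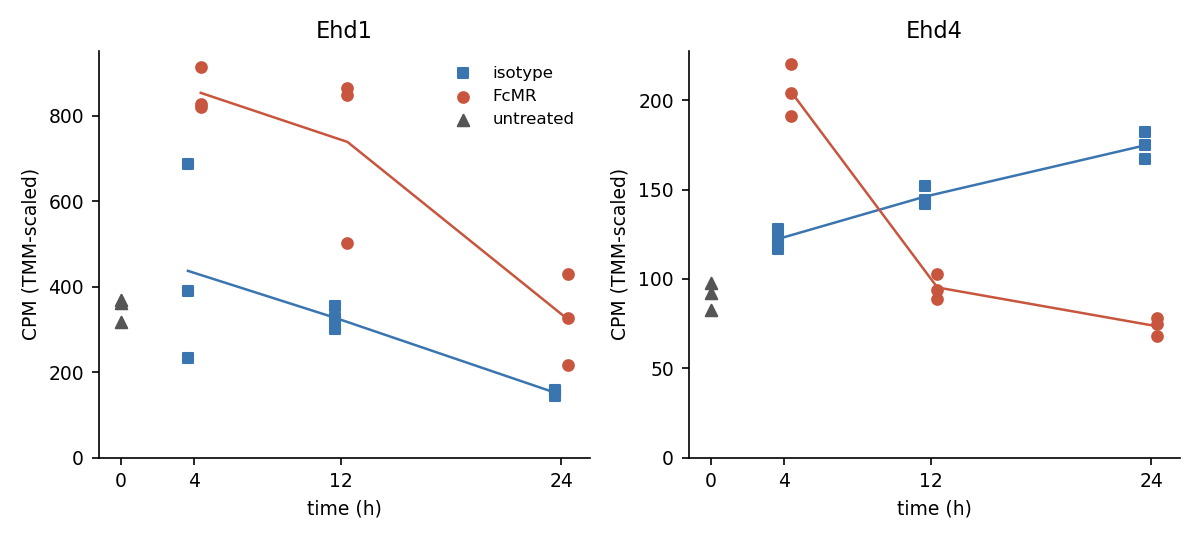
Levels of Ehd1 (left) and Ehd4 (right) in each library against time in hours, in CPM after TMM scaling; squares are isotype, circles FcMR and triangles untreated libraries, lines join group means of 3 libraries, and points are shifted sideways by arm. The Ehd4 arms cross between 4 and 12 h (205 against 122 CPM at 4 h, 73.5 against 175 at 24 h), while the FcMR points of Ehd1 lie above the isotype points at each time.

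As group means ± SD (n = 3), the 4 h level of Ehd4 was 205 ± 14.2 CPM for FcMR and 122 ± 5.79 CPM for isotype. The difference was 0.75 on the log2 scale (SE 0.0823), or 1.68-fold. At 12 h the means were 95.2 ± 7.11 and 146 ± 5.26, a log2 difference of -0.62 (SE 0.0819). At 24 h they were 73.5 ± 5.17 and 175 ± 7.23, a log2 difference of -1.25 (SE 0.0832), or 2.38-fold lower with FcMR. From 4 h to 12 h the FcMR difference moved by -1.36, and from 4 h to 24 h by -1.995.

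Set against the untreated cells, Ehd4 in the isotype arm was higher by 0.43 at 4 h, 0.69 at 12 h and 0.95 at 24 h (SE 0.082 to 0.0824). In the FcMR arm the differences from untreated were 1.18, 0.07 and -0.30 (SE 0.0819 to 0.0827). Both sets share the untreated libraries. Ranked from lowest to highest mean, the groups ran FcMR 24 h, untreated, FcMR 12 h, isotype 4 h, isotype 12 h, isotype 24 h and FcMR 4 h. Untreated and FcMR 12 h were the neighbours whose libraries overlapped (82.7 to 97.5 against 88.9 to 103 CPM), and the other neighbours did not.

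The authors' normalized table gave the same order of the arms on its own signal scale. At 4 h Ehd4 read 2815, 2503 and 2508 with FcMR and 1700, 1913 and 1262 with isotype. At 12 h it read 1335, 1088 and 882 with FcMR and 1742, 1863 and 1669 with isotype. At 24 h it read 939, 959 and 1035 with FcMR and 2558, 2088 and 2142 with isotype. The arms did not overlap at any of the 3 times. The isotype 4 h value of 1262 and the FcMR 12 h value of 1335 belong to the 2 libraries out of title order, and they were the lowest and the highest of their groups.

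On the count scale, those 2 libraries read 128 CPM (isotype 4 h replicate 3) and 88.9 CPM (FcMR 12 h replicate 1), each close to the group it is labelled with. With the GC trend removed they read 122 and 93.8 CPM. Under that correction the 4, 12 and 24 h differences of Ehd4 between FcMR and isotype were 0.73, -0.56 and -1.24. Without the 2 libraries, and with no GC correction, they were 0.78, -0.57 and -1.25.

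Ehd1 RNA was higher with FcMR than with isotype at 4, 12 and 24 h, so the 2 abundant members of the family parted at the later times. The untreated libraries gave 362, 317 and 369 CPM. At 4 h the FcMR libraries gave 827, 913 and 819 CPM and the isotype libraries 390, 234 and 687. At 12 h they gave 503, 847 and 865 against 300, 327 and 356. At 24 h they gave 326, 218 and 429 against 156, 144 and 158. The arms did not overlap at any time, although isotype 4 h, FcMR 12 h and FcMR 24 h spread widely. The same held, in either direction, for 29.7% of all genes at 4 h, 35.4% at 12 h and 34.4% at 24 h.

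The log2 difference of Ehd1 between FcMR and isotype was 0.96 at 4 h (SE 0.292, 1.95-fold; edgeR quasi-likelihood adjusted p = 0.0291). At 12 h it was 1.17 (SE 0.293, 2.25-fold; edgeR adjusted p = 0.00903) and at 24 h 1.09 (SE 0.295, 2.13-fold; edgeR adjusted p = 0.0123). The p-values are adjusted by Benjamini-Hochberg over the 13468 genes tested, and a gene was called at an adjusted p under 0.05. Ehd1 was thus called as higher at each time, where 17.7% of all genes were called at 4 h, 16.1% at 12 h and 20.9% at 24 h, of them 8.62%, 8.61% and 11.4% as higher. A joint test of whether the difference changed over the 3 times did not pass the threshold for Ehd1 (change of 0.13 from 4 h to 24 h; edgeR adjusted p = 0.96), where 11% of all genes passed.

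The wide spread of Ehd1 went with the GC tilt of the libraries. The isotype 4 h library at 687 CPM had a tilt of 0.641 and the one at 234 CPM a tilt of -1.58. The FcMR 12 h library at 503 CPM had a tilt of -0.722, while the other 2 of that group had 0.722 and 0.8. Deviations from group means in Ehd1 and in tilt correlated at r = 0.972 over the 21 libraries, against 0.532 for Ehd4. These points share libraries and base composition, and the values are a description.

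**Figure D2:**
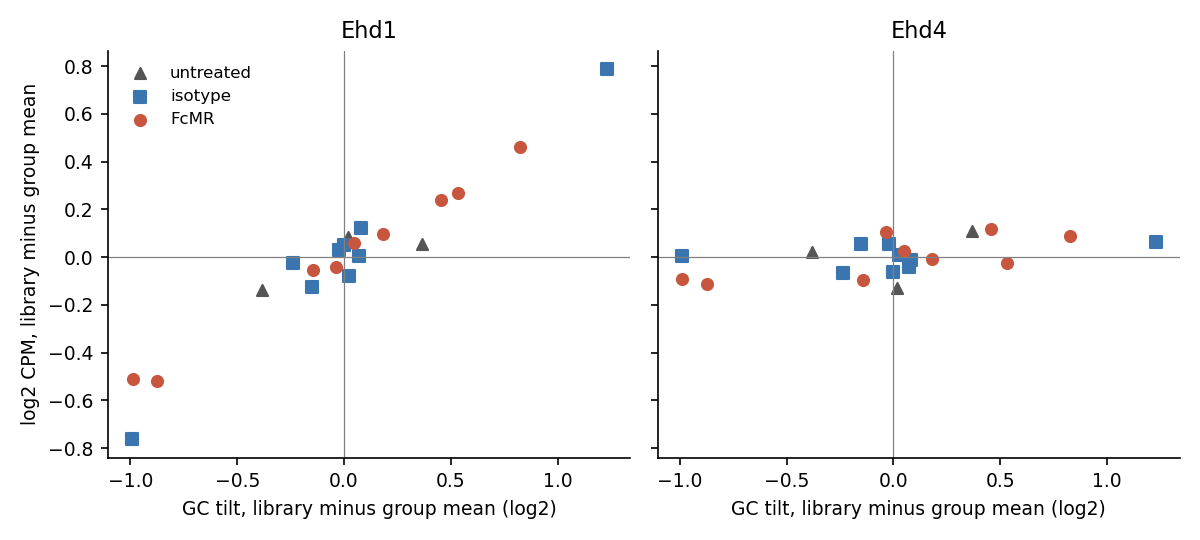
Level of Ehd1 (left) and Ehd4 (right) in each library less its group mean (log2 CPM, vertical axis), against the library's GC tilt less its group mean (log2, horizontal axis); symbols mark untreated, isotype and FcMR libraries. Ehd1 climbs with the tilt (r = 0.972), and Ehd4 follows it less closely (r = 0.532).

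With the GC trend removed, the Ehd1 libraries of isotype 4 h, FcMR 12 h and FcMR 24 h drew together and the FcMR difference kept its direction. Untreated libraries lay further apart (249 to 314 CPM, from 317 to 369). At 4 h the FcMR libraries then read 945, 967 and 1020 CPM and the isotype libraries 545, 480 and 492. At 12 h they read 685, 595 and 595 against 225, 230 and 235. At 24 h they read 403, 385 and 398 against 168, 159 and 169. The difference was 0.95 at 4 h (edgeR adjusted p = 3.57e-08), 1.44 at 12 h (edgeR adjusted p = 1.49e-10) and 1.26 at 24 h (edgeR adjusted p = 5.01e-10). The joint test over time passed the threshold under this correction (change of 0.31 from 4 h to 24 h; edgeR adjusted p = 0.00891), so a change of the Ehd1 difference over time was called in 1 of these 2 treatments of GC content.

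**Figure D3:**
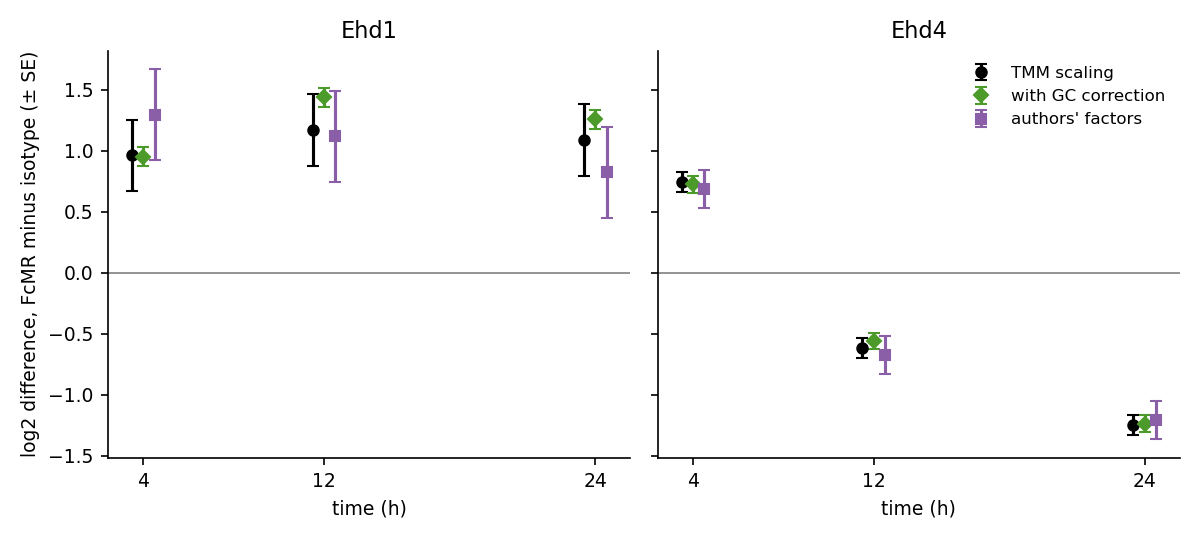
Log2 difference between FcMR and isotype (vertical axis, ± SE) at 4, 12 and 24 h for Ehd1 (left) and Ehd4 (right), from the fit with TMM scaling, with GC correction added, and with the authors' own scaling factors. Ehd1 stays above 0 (0.96, 1.17 and 1.09 with TMM), and Ehd4 goes from 0.75 to -1.25; GC correction shortens the error bars of Ehd1.

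The call of Ehd1 at 4 h was lost when FcMR 4 h replicate 1, 2 or 3 or isotype 4 h replicate 1 or 2 was left out (edgeR adjusted p = 0.05 to 0.102), and without isotype 4 h replicate 3 the difference rose to 1.45 (edgeR adjusted p = 0.000873). At 24 h it was lost without FcMR 24 h replicate 3 (0.83; edgeR adjusted p = 0.0591), and with the authors' factors it was lost at 12 h (1.12; edgeR adjusted p = 0.0552) and 24 h (0.82; edgeR adjusted p = 0.153).

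Against untreated cells, Ehd1 in the FcMR arm was higher at 4 h (1.29, SE 0.294; edgeR adjusted p = 0.00153) and 12 h (1.08, SE 0.293; edgeR adjusted p = 0.0053). At 24 h it differed by -0.11 (SE 0.29; edgeR adjusted p = 0.778). In the isotype arm it differed by 0.32 at 4 h (edgeR adjusted p = 0.412) and -0.09 at 12 h (edgeR adjusted p = 0.836), and it was lower at 24 h by a log2 difference of -1.20 (SE 0.295; edgeR adjusted p = 0.00316). Of all genes, 48.2%, 48.1% and 51.4% were called between FcMR and untreated at 4, 12 and 24 h, and 35.6%, 41.6% and 42.3% between isotype and untreated. Both sets share the untreated libraries. With the GC trend removed the isotype 4 h difference was 0.82 (edgeR adjusted p = 7.25e-08), the isotype 12 h difference -0.32 (edgeR adjusted p = 0.00188) and the FcMR 24 h difference 0.46 (edgeR adjusted p = 4.45e-05), all 3 past the threshold and all set against the untreated libraries whose spread widened. Without the 2 libraries out of title order the isotype 4 h difference was -0.16 (edgeR adjusted p = 0.556).

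By mean level, the Ehd1 groups ran from isotype 24 h (152 ± 7.56 CPM) through FcMR 24 h (324 ± 106), isotype 12 h (328 ± 27.8), untreated (350 ± 28.3), isotype 4 h (437 ± 230) and FcMR 12 h (738 ± 204) to FcMR 4 h (853 ± 51.8; SD, n = 3 throughout). Isotype 24 h did not overlap its neighbour. All other neighbours in this order overlapped.

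The summed dendritic-cell markers, though not each marker, were higher with FcMR than with isotype at each time, as Ehd1 was. Across all groups the order differed. Ehd1 averaged 350 CPM in untreated cells and 328 CPM in isotype 12 h, where the marker sum was the higher of these groups. All 6 markers of that list were in the table, and their summed level, in CPM of the library total, was 7530 to 9240 with FcMR against 5530 to 6350 with isotype at 4 h. It was 7050 to 8290 against 4230 to 4960 at 12 h and 4130 to 4160 against 2120 to 2310 at 24 h, with 2270 to 2540 in untreated cells. Ccl22, a chemokine of activated dendritic cells and macrophages, made up 60% to 83.1% of the summed group means with FcMR, 30.8% to 75.1% with isotype and 34.9% in untreated cells. Ccr7, a homing receptor, lay above isotype with FcMR at 4 h (401 to 512 against 238 to 382 CPM) and 24 h (638 to 701 against 368 to 428) and overlapped at 12 h. Itgax, the integrin CD11c, lay below isotype with FcMR at 12 h (1024 to 1090 against 1135 to 1160 CPM) and 24 h (852 to 892 against 966 to 1079). Zbtb46, a transcription factor of conventional dendritic cells, overlapped between the arms at 4 h (38.7 to 42.4 against 37.6 to 44.5 CPM) and lay above isotype at 24 h (27.1 to 29.2 against 17.2 to 18.1). Flt3, the receptor that defines dendritic precursors, read 7.99 to 9.54 CPM with FcMR and 8.6 to 11 with isotype at 4 h, 19.1 to 19.5 and 27.5 to 30.8 at 12 h, and 25.4 to 31.7 and 23.8 to 29.7 at 24 h. Cd209a went the other way from untreated cells (13.4 to 19 CPM) in both arms. It read 0.93 to 0.99 CPM with FcMR and 0.72 to 1.15 with isotype at 4 h. At 12 and 24 h it read at most 0.174 CPM in either arm and was at 0 in at least 1 library. The part of these markers in the Ehd1 result was not tested, and in bulk RNA more cells of a type and more RNA per cell cannot be told apart.

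Per kilobase of the longest transcript, Ehd1 was the more abundant member in most libraries, and the ratio of Ehd1 to Ehd4 differed by group. This ratio had a median of 4.14 in untreated cells. It was 4.76 with FcMR and 3.72 with isotype at 4 h, where the libraries overlapped (4.19 to 4.97 against 2.13 to 5.96). At 12 h it was 9.16 with FcMR (6.3 to 10.2) and 2.56 with isotype (2.2 to 2.74). At 24 h it was 4.85 (3.57 to 6.12) against 0.953 (0.911 to 1.05), the group in which both genes stood at near equal levels. By mean level per kilobase, Ehd1 lay at the 96.2th percentile of the genes tested and Ehd4 at the 86.5th. Over the 21 libraries the log2 levels of Ehd1 and Ehd4 correlated at r = 0.0452 (0.0692 with the GC trend removed), a description over libraries that share depth and base composition.

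**Figure D4:**
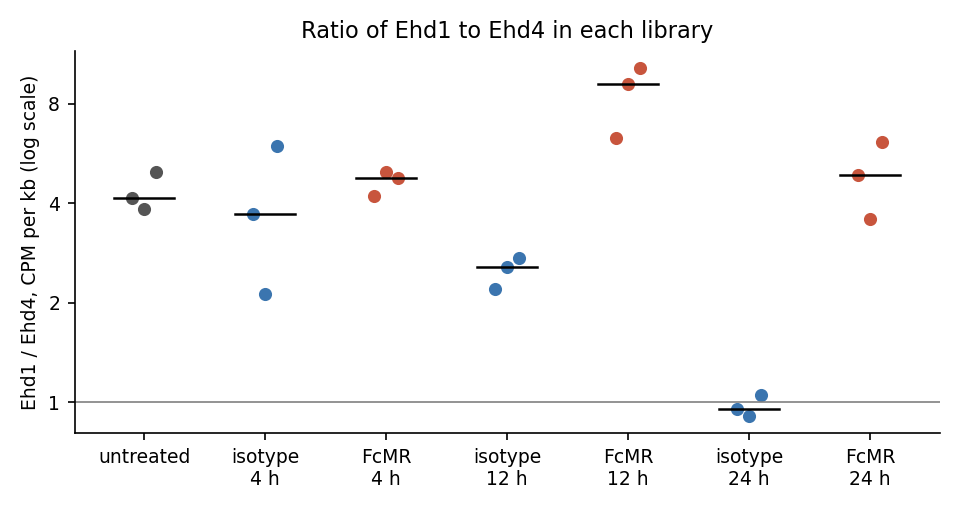
Ratio of Ehd1 to Ehd4 in CPM per kilobase of transcript (log scale) in each library, by group; bars mark the group median of 3 libraries. The isotype 24 h libraries sit at 0.911 to 1.05 and the FcMR 12 h libraries at 6.3 to 10.2.

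Ehd2 and Ehd3 were at the edge of detection and did not pass the expression filter, so neither was tested in the main fit. Ehd2, the member of caveolar necks, held 0 to 9 counts in a library, and 9 of 21 libraries had none. Summed over a group, Ehd2 was highest in untreated cells, with 12 counts (0.301 CPM of the library totals, 95% exact Clopper-Pearson interval 0.155 to 0.525). In isotype 24 h it had 0 of 25665065 counts, which allows a level of up to 0.117 CPM by 3 counts over the group and 0.144 CPM by the exact interval. FcMR 12 h and FcMR 24 h had 1 count each. Ehd3 held 0 to 15 counts in a library and was at 0 in 5 of 21. The group with its highest level was FcMR 12 h at 0.254 CPM (12 counts, exact interval 0.131 to 0.443), beside 0.243 CPM in isotype 12 h (22 counts, exact interval 0.152 to 0.367). In untreated cells Ehd3 had 3 counts (0.0752 CPM, exact interval 0.0155 to 0.22). Intervals and floors cover counting error only. The Ehd2 interval of the untreated group lay above those of isotype 24 h (up to 0.144), FcMR 12 h (up to 0.118) and FcMR 24 h (up to 0.128), while the Ehd3 intervals of the 2 arms overlapped at each time. Fitted without the expression filter over 23250 genes, neither gene passed the threshold between FcMR and isotype (edgeR adjusted p = 0.599 to 0.787 for Ehd2 and 0.349 to 0.996 for Ehd3). Against untreated cells Ehd2 passed it in isotype 24 h (edgeR adjusted p = 0.0476) and missed it in FcMR 24 h (edgeR adjusted p = 0.0618) and FcMR 12 h (edgeR adjusted p = 0.0687). The isotype 24 h call rested on 12 counts against 0. In the main fit, which does not hold Ehd2, 42.3% of all genes were called in that comparison, 51.4% in FcMR 24 h and 48.1% in FcMR 12 h against untreated cells. These shares are not those of the unfiltered fit. Between isotype and untreated at 12 h the unfiltered fit called 5178 of 23250 genes, and the main fit 5602 of 13468.

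Genes of the wider recycling machinery were called in both directions with FcMR, at shares near those of all genes. Of 66 listed genes of this machinery other than the EHD family, 63 were tested. At 4 h, 5 were called as higher and 6 as lower with FcMR (17.5% of those tested, against 17.7% of all genes, 8.62% higher and 9.13% lower). At 12 h, 8 were higher and 4 lower (19% against 16.1%, of all genes 8.61% higher and 7.49% lower). At 24 h, 7 were higher and 7 lower (22.2% against 20.9%, of all genes 11.4% higher and 9.44% lower). Their median log2 difference was -0.0172, 0.0215 and 0.00137 at the 3 times, beside -0.0727, -0.0171 and 0.00644 over all genes. Without isotype 4 h replicate 3 the 4 h count of higher genes was 9, the 4 h count of lower genes was 3 without FcMR 4 h replicate 1 or 2 and 0 without isotype 4 h replicate 2, and without FcMR 24 h replicate 3 the 24 h count of higher genes was 12. The 4 h counts also moved with the settings, to 11 higher with GC correction and to 3 higher and 0 lower with only the groups compared. In the joint test over time 10 of the 63 passed (15.9%, against 11% of all genes).

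Among the binding partners of EHD proteins, 12 of 12 were tested. At 4 h 1 was called as higher and 0 as lower (8.33%, against 17.7% of all genes), and at both 12 and 24 h 1 was higher and 2 lower (25%, against 16.1% and 20.9%). Arhgap26, a GTPase-activating protein that shapes tubular endocytic carriers, was higher with FcMR at each time (log2 differences of 0.797, 0.83 and 0.88; edgeR adjusted p = 0.00252, 0.00165 and 0.000949), though the 4 h call was lost with only the groups compared. Its levels at 24 h were 29.4, 38.7 and 28 CPM with FcMR and 16.6, 18.1 and 17.9 with isotype. Myof, a ferlin of membrane fusion and repair, was lower at 12 h (-0.424; edgeR adjusted p = 0.000712) and 24 h (-0.688; edgeR adjusted p = 3.43e-06). It read 674, 680 and 663 CPM with FcMR and 1092, 1046 and 1111 with isotype at 24 h. Its FcMR difference changed over time (joint edgeR adjusted p = 0.00835). Pacsin1, a membrane-bending F-BAR protein, was lower at 12 h from low levels (0.902 ± 0.283 against 2.13 ± 0.642 CPM, SD, n = 3; -1.26, edgeR adjusted p = 0.0199). That call was lost under 4 of 10 alternatives, GC correction among them.

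The caveolar coat, the structure that Ehd2 is known to sit beside, held the recycling-list gene with the largest FcMR difference among those named at 12 and 24 h. Of 5 coat genes 3 were tested, and 1, 2 and 2 of them were called as higher at 4, 12 and 24 h and none as lower. Of all genes, 8.62%, 8.61% and 11.4% were called as higher. Cavin1, named here after its values were seen, was not called at any time (-0.157, 0.169 and -0.176; edgeR adjusted p = 0.744, 0.759 and 0.725). Against untreated cells it was lower in both arms at 24 h (-2.2 with FcMR and -2.02 with isotype). Cav1, the main coat protein of caveolae, read 1196, 1279 and 1352 CPM with FcMR and 724, 709 and 714 with isotype at 4 h. At 12 h it read 1494, 1308 and 1445 against 446, 525 and 611. At 24 h it read 890, 1099 and 917 against 131, 136 and 184, and untreated cells had 133, 163 and 162. At 24 h the isotype libraries overlapped the untreated ones and the FcMR libraries lay above both. The log2 differences were 0.834, 1.42 and 2.69 (edgeR adjusted p = 0.000272, 7.42e-07 and 3.4e-10), and the difference changed over time (joint edgeR adjusted p = 1.65e-05).

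Summed stromal markers, though not each marker, were higher with FcMR at 12 and 24 h, at a far lower level than Cav1. The sums overlapped at 4 h (4.12 to 6.1 against 3.02 to 4.7 CPM). The 7 fibroblast and stroma markers summed to 11.1 to 17.1 CPM of the library total with FcMR and 2.61 to 3.36 with isotype at 12 h, and to 8.89 to 11.8 and 0.946 to 1.47 at 24 h. Pdgfrb, a growth factor receptor of mural cells and fibroblasts, carried most of the 12 h sum with FcMR (7.91 to 14.5 CPM after TMM scaling, against 1.29 to 1.9 with isotype). Dcn and Lum also lay above isotype with FcMR at 12 and 24 h. Col1a1 overlapped between the arms at 12 h (0.388 to 1.48 against 0.448 to 0.832 CPM) and 24 h (0.513 to 0.852 against 0.214 to 0.882). Pdgfra averaged lower with FcMR at 12 h (0.22 against 0.43 CPM) and 24 h (0.158 against 0.214). Of these markers Col1a2 held at most 3 counts and Col3a1 at most 6 in any library. Their part in the Cav1 result was not tested.

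Among small GTPases and their effectors, Rab11fip1, a Rab11 effector on recycling endosomes, was higher with FcMR at each time (1.31, 1.11 and 1.27; edgeR adjusted p = 3.47e-07, 1.24e-06 and 1.81e-07). Its libraries read 431, 513 and 512 CPM with FcMR and 197, 163 and 229 with isotype at 4 h. Rab11fip5, another effector of the same family, was lower at 12 h (-0.888; edgeR adjusted p = 0.00096) and 24 h (-0.828; edgeR adjusted p = 0.0014). It read 41.9, 36.1 and 45.8 CPM with FcMR against 71, 68.7 and 79.4 with isotype at 24 h. The 2 effectors thus differed from the isotype arm in opposite directions. Of the 12 GTPases tested, 1 was called at 4 h and 1 at 12 h (8.33% each) and 2 at 24 h (16.7%). Of all genes, 17.7%, 16.1% and 20.9% were called. The GTPases, named here after their values were seen, were not the same at each time. Rab22a was higher at 4 h, Rab10 was higher at 12 and 24 h, and Arf6 was lower at 24 h.

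Retromer and sorting nexins, which sort cargo out of endosomes, had 3 of 12 genes lower at 4 h, 1 at 12 h and 3 at 24 h, and none higher, where 9.13%, 7.49% and 9.44% of all genes were called as lower. None of the list's lower calls at 4 h was left without isotype 4 h replicate 2 or with only the groups compared. Snx5 was lower at 4 h (-0.648; edgeR adjusted p = 0.00565) and 24 h (-0.616; edgeR adjusted p = 0.00615), and Vps26b, a retromer subunit, at 4 h (-0.4; edgeR adjusted p = 0.00676). The 4 h calls of Vps26b and of Tfrc below were also lost without the expression filter. Snx2 read 290, 291 and 286 CPM with FcMR and 246, 278 and 201 with isotype at 4 h. It read 137, 159 and 113 against 218, 203 and 210 at 24 h. The Snx2 difference was not called at 4 h (0.256; edgeR adjusted p = 0.168) or 12 h (-0.195; edgeR adjusted p = 0.357). It was -0.625 at 24 h (edgeR adjusted p = 0.00112) and changed over time (joint edgeR adjusted p = 0.00806). Of 4 recycling cargoes, Tfrc, the transferrin receptor, was lower at 4 h (-0.566; edgeR adjusted p = 0.00866), with 0.0973 at 24 h (edgeR adjusted p = 0.703). Itgb1, an integrin subunit named here after its values were seen, was higher at 12 h (0.422; edgeR adjusted p = 0.0295).

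**Figure D5:**
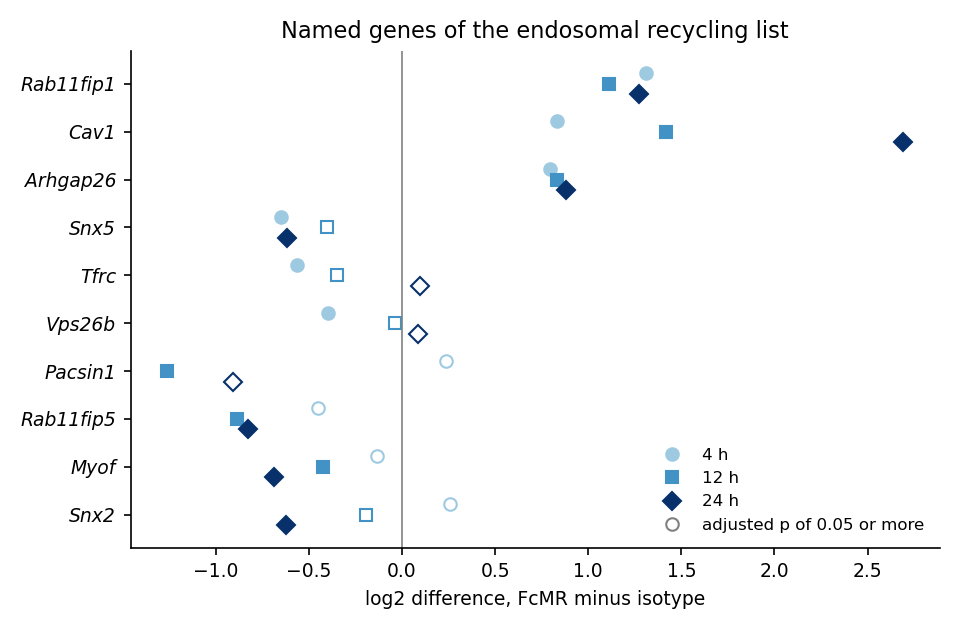
Log2 difference between FcMR and isotype (horizontal axis) at 4, 12 and 24 h for the 10 recycling genes named by rule; filled symbols passed an edgeR adjusted p of 0.05 and open ones did not. Cav1 runs from 0.834 to 2.69, Rab11fip1 stays between 1.11 and 1.31, and Snx2 moves from 0.256 to -0.625.

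The genes whose levels ran most like Ehd4 were sought among 10354 genes over the 21 libraries by Pearson's r on log2 CPM. They were Frmd4a (r = 0.926), a scaffold protein with a FERM domain, Ncoa3 (0.905), a coactivator of nuclear receptors, Rhoh (0.896), a small GTPase of blood cells, Hipk2 (0.881), a nuclear kinase, and Gpr137b-ps (0.874), a pseudogene that may share reads with its parent gene. Frmd4a had FcMR differences of 0.47, -0.554 and -0.86 at 4, 12 and 24 h, and Rhoh of 0.502, -0.538 and -1.37. All 5 were chosen for likeness to a gene with this time course. The most opposite were Cd300e (r = -0.885), a myeloid surface receptor, and Srr (-0.877), serine racemase. At 24 h the Cd300e level was 8.75 ± 1.16 CPM in FcMR libraries and 0.734 ± 0.301 in isotype libraries (SD, n = 3). With the GC trend removed Snx2 came first (r = 0.955), followed by Frmd4a (0.919), Ncoa3 (0.911) and Frmd4b (0.911).

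For Ehd1 the nearest were Nfkb2 (r = 0.977), the precursor of the non-canonical NF-kB subunit p52, Ebi3 (0.971), a subunit of interleukin-27, and Tnip1 (0.969), an inhibitor of NF-kB signalling. All 3 have GC-rich transcripts like Ehd1 (57.4% to 59.4%). Nfkb2 read 174, 107 and 347 CPM in isotype 4 h, where Ehd1 read 390, 234 and 687, so the same library was highest for both. With the GC trend removed the order was Pvr (r = 0.988), Socs3 (0.986) and Nfkb2 (0.984). The libraries behind these values share depth and base composition, and r is given as a description.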

How the data were processed

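The authors deposited a raw and a normalized table of 23250 genes for 21 libraries. The submitters' processing notes name CASAVA 1.8.2, kallisto 0.44.0, DESeq2 and the builds mm10 and GRCm38, with no role given. The raw values were treated as estimated counts deposited by the authors; all were whole, so rounding changed none. The normalized values are the authors' signal on a linear scale, whose ratio to the raw counts differs by gene and library. Symbols, positions, transcript lengths and GC content came from GENCODE M21 (GRCm38), matched without ID version (23187 genes; 21231 matched with version).

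The test was edgeR 4.0.16 quasi-likelihood (R 4.3.3) in one fit of 21 libraries with one coefficient per group, TMM factors and filterByExpr (minimum count 10), which left 13468 genes. P-values were adjusted by Benjamini-Hochberg. The test recovered known changes in simulated counts. Those counts had the same spread for all genes and no GC tilt, so they cannot show how the test behaves under the tilt of these libraries. CPM values carry TMM factors unless said otherwise, and log2 levels for correlations used a prior count of 2. The smallest level that 3 counts show ran from 0.045 to 0.542 CPM. Replicates correlated at r = 0.92 to 0.987, and a chi-square test of their counts found more than sampling noise in each pair (lowest ratio to its degrees of freedom 3.09), so each library counted once.

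Alternatives were DESeq2 1.42.0, limma-voom (limma 3.58.1), RLE scaling, testing without the expression filter or with a mean count of 10 as the filter, the authors' factors, a GC correction (loess, span 0.5, per library, over 13440 genes with known GC), the compared groups alone, the replicate number as a block, leaving out the 2 libraries out of title order, and leaving out each library in turn. Likeness on GC-corrected levels was added after the data were seen.

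The members and gene lists were chosen with earlier results of these data known. Named recycling genes are, for each FcMR against isotype comparison, the called genes, at most 3 with the highest and 3 with the lowest fold change. Likeness names the 5 highest and 2 lowest correlations for Ehd4 and the 3 highest for Ehd1, among genes with a mean log2 CPM of at least 1. Replicate numbers come from the titles, and no label ties same-numbered libraries together.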

Additional observations from a re-analysis of the deposited data

Results flagged for a closer look

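Ehd4 had FcMR libraries above the isotype libraries at 4 h and below them at 24 h, and the FcMR difference at 24 h less that at 4 h was -1.995 on the log2 scale. This difference was not tested, because the gene was picked for it.

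The FcMR difference changed over the 3 times in 10 of 63 recycling genes tested (15.9%) by the joint edgeR test, 3 of them among the genes named by rule. For Cav1 the adjusted p was 1.65e-05 in edgeR, as the difference went from 0.834 at 4 h to 2.69 at 24 h. For Myof it was 0.00835 in edgeR, with -0.136 at 4 h and -0.688 at 24 h, and for Snx2 it was 0.00806 in edgeR, with 0.256 at 4 h and -0.625 at 24 h. The 4 h differences of Myof and Snx2 were not called on their own (edgeR adjusted p = 0.256 and 0.168). The other 7, listed here after their values were seen, were Cav2, Rab11fip4, Rabgef1, Numb, Rab10, Arf6 and Exoc2. Of all genes tested, 11% passed the same test.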

How the results depend on the processing

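Of 516 recomputed leading values, 474 were rated as unchanged. For Ehd1 this meant the same direction and side of the threshold (150 of 172). For Ehd4 it meant a move smaller than the spread within groups (162 of 172). The other 172 were counts of genes called over all genes, rated by a set limit on their fold change from the reported count (162 of 172). All differences of Ehd1 between FcMR and isotype kept their direction. The causes of the changes below were not tested, except that leaving out libraries or groups also lowers the number of samples.

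With GC correction the genes called numbered 3832 between FcMR and isotype at 4 h, 3383 at 12 h and 2923 in the joint test over time (2390, 2168 and 1484 as reported). For Ehd1 it gave 0.8173 between isotype and untreated at 4 h, -0.3192 at 12 h, 0.4625 between FcMR and untreated at 24 h and 0.3085 for the change from 4 h to 24 h, all past the threshold. Without the 2 libraries out of title order, 3940 genes were called between FcMR and isotype at 4 h and 2620 in the joint test, and Ehd1 gave -0.1617 between isotype and untreated at 4 h and -0.3611 for the change. With only the groups compared, 791 genes were called between FcMR and isotype at 4 h and 2837 between isotype and untreated at 4 h, and Ehd1 at 4 h (0.9634; edgeR adjusted p = 0.169) lost its call.

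With the authors' factors Ehd1 lost its calls between FcMR and isotype at 12 h (1.119) and 24 h (0.8241) and between isotype and untreated at 24 h (-0.8358; edgeR adjusted p = 0.0872), and its change was -0.4733 (-0.05935 with limma-voom). With the same factors Ehd4 gave 0.7039, 0.8205 and 1.185 between isotype and untreated at 4, 12 and 24 h, 1.391 and -0.02584 between FcMR and untreated at 4 and 24 h, and a change of -1.898. Without the expression filter Ehd4 gave 0.8633 between FcMR and isotype at 4 h, 0.3314 between isotype and untreated at 4 h and a change of -2.099, DESeq2 gave a change of -2.081, and the joint test called 925 genes.

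Leaving out each library in turn gave ranges for Ehd1 of 0.7228 to 1.45 between FcMR and isotype at 4 h, 0.8343 to 1.31 at 24 h, -0.162 to 0.5872 between isotype and untreated at 4 h, -0.364 to 0.1116 between FcMR and untreated at 24 h, and -0.3608 to 0.3684 for the change. The joint test then called 973 (without FcMR 4 h replicate 2) to 2322 genes (without isotype 4 h replicate 3).

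Among calls between FcMR and isotype at 4 h, 1161 were higher and 1229 lower, against 1412 and 839 with RLE factors, 1509 and 835 with DESeq2 and 1243 and 608 with the authors' factors. In the joint test 840 differences went up from 4 h to 24 h and 644 down, against 587 and 780, 727 and 984, and 401 and 600 with the same settings. The recycling list's calls at 4 h ran from 3 to 11 higher and 0 to 8 lower over the settings, at 12 h from 5 to 10 and 2 to 8, and at 24 h from 5 to 13 and 6 to 12. No scaling moved the median of all genes by over 0.1.

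With the replicate number as a block, Ehd1 gave 1.041, 1.166 and 1.053 (edgeR adjusted p = 0.0108, 0.00477 and 0.00803) and Ehd4 0.743, -0.6184 and -1.249 at 4, 12 and 24 h, and 2540, 2290 and 2911 genes were called. Same-numbered libraries deviated together at correlations of -0.166 to 0.199 in these comparisons, so the numbers were not taken as pairs. Depth limits Ehd2 and Ehd3, which the expression filter removed from the main fit.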
